A study of Mus musculus with 12 samples.

Results

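The genes considered here were 10 genes of the NRF2 antioxidant response, *Nfe2l2*, *Keap1*, *Slc7a11*, *Gclc*, *Gclm*, *Gsr*, *Txnrd1*, *Srxn1*, *Nqo1* and *Hmox1*. They were chosen by name as genes of this pathway, with earlier results of these data known, and each matched exactly 1 of the 21247 genes in the count table. All 10 were among the 20454 genes tested. RNA-seq counts of mouse eye-skin were compared between 4 libraries with the label ft/ft and 4 with the label ft/ftMyD88-/-. Both groups were homozygous for ft, a point mutation that arose spontaneously and inactivates the gene for filaggrin, a structural protein of the outer epidermis, and per the methods neither carried the matted mutation of the original flaky tail strain. The second group also lacked MyD88, the adaptor through which most Toll-like receptors and the IL-1 receptor family signal, and by design the comparison asked how filaggrin-deficient skin differed with and without MyD88. Mice were 6 weeks old, on a BALB/c background, and untreated as far as the labels say. The study reports spontaneous inflammation around the eyes in all ft/ftMyD88-/- mice by that age and none visible in ft/ft mice. Loss of MyD88 and inflamed skin therefore cannot be told apart in this comparison. MyD88 was lost throughout the body, so no cell type was singled out, and 4 WT samples named in the labels were not analysed here.

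NRF2, the product of *Nfe2l2*, is a transcription factor that KEAP1 holds for degradation under resting conditions. Oxidants and reactive chemicals modify KEAP1, after which NRF2 accumulates, pairs with a small MAF protein and binds antioxidant response elements near genes for glutathione synthesis, thioredoxin recycling, quinone reduction and haem breakdown. Much of this control acts on the NRF2 protein, which RNA levels do not measure. In skin the pathway is best known in keratinocytes, which meet oxidants, ultraviolet light and chemicals first.

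Promoter windows from RefSeq, on GRCm38.p6 and running from 250 bases before to 50 bases after an annotated start, were given for 7 of the 10 genes. *Gclc*, *Gsr* and *Hmox1* had no entry. The antioxidant response element core was searched as TGACNNNGC on both strands, and 12.4% of all 32851 windows held it. Of 9 windows of these genes, 4 did, those of *Nfe2l2*, *Srxn1*, *Gclm* and one of 3 *Txnrd1* windows. The AP-1 site TGANTCA, searched the same way, stood in 7.81% of windows and in that of *Srxn1*, at positions -102 and -45 from the start. The letters TGATGNAA, which form an amino acid response element and were added after the expression values had been seen, stood in 3.97% of windows and in that of *Slc7a11*. No matches of different motifs overlapped in these windows. The windows of *Slc7a11*, the gene with the highest fold change, and of the 3 enzyme genes with a TGACNNNGC match are shown, to be read beside the levels of these genes below. Capitals mark TGATGNAA matches in *Slc7a11* and TGACNNNGC matches in the others, and a match on the opposite strand reads as its reverse complement.
Slc7a11, chr3:50443564-50443863, minus strand: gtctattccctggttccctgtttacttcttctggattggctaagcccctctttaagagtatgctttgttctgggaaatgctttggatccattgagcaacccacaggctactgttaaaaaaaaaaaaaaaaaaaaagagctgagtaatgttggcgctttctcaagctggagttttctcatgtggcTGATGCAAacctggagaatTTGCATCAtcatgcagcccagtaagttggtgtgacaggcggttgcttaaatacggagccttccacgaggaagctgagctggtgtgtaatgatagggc
Gclm, chr3:122245307-122245606, plus strand: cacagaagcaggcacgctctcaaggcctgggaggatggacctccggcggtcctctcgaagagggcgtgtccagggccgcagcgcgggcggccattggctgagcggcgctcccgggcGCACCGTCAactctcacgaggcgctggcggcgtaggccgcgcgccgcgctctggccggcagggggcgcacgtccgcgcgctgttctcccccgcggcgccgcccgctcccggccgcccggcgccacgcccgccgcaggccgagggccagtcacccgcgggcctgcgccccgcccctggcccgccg
Srxn1, chr2:152105274-152105573, plus strand: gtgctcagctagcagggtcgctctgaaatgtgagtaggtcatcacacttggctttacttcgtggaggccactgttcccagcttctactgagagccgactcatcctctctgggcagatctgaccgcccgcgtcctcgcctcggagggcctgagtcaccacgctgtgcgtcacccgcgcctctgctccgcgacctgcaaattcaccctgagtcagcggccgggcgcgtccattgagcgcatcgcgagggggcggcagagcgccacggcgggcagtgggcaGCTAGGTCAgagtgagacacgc
Txnrd1, chr10:82858956-82859255, plus strand: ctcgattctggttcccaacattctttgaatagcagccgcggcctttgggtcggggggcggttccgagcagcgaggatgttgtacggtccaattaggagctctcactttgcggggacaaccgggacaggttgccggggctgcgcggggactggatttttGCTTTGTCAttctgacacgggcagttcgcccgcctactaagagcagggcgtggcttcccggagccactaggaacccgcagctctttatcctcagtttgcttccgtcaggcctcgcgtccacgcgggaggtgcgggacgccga
The *Slc7a11* matches were both TGATGCAA, at -66 on the gene strand and at -47 on the other strand, in a window whose start lies inside the annotated gene. The other matches were all on the strand opposite the gene, TGACGGTGC at -134 in *Gclm*, TGACAAAGC at -92 in *Txnrd1* and TGACCTAGC at 28 in *Srxn1*. The AP-1 match at -45 in *Srxn1* reads TGAGTCAGC with the bases that follow it, so it has G where TGACNNNGC has C. These matches describe letters in short windows, and elements with other letters or further from the start were not looked for.

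Library totals were 18941705 to 29255129 counts in the ft/ft group and 15802957 to 27037997 counts in the ft/ftMyD88-/- group. Levels are given as CPM, read counts scaled to a common library total, with TMM factors applied, with fold changes as ft/ftMyD88-/- over ft/ft. A gene was called where edgeR's quasi-likelihood test gave a Benjamini-Hochberg adjusted p under 0.05 over all genes tested, and the smallest p that the exact permutation test can give with 4 libraries against 4 is 0.0286. The 16 mitochondrially encoded genes took 1.86% to 2.72% of counts in ft/ft and 1.02% to 1.99% in ft/ftMyD88-/-. *Myd88* itself was called higher in ft/ftMyD88-/- (41.2 ± 7.29 CPM against 30.7 ± 4.74, SD, n = 4, log2 fold change 0.42, edgeR adjusted p = 0.0484), so its RNA level did not show the loss named in the label. Whole-gene counts cannot show whether a deleted part was missing. By immunofluorescence the study reports MyD88 protein in the epidermis of ft/ft but not of ft/ftMyD88-/- mice. The group names below stand for libraries labelled so. *Xist*, the RNA of the inactive X, was at 34.6 to 66.8 CPM in ft/ftMyD88-/- and at most 0.0429 CPM in ft/ft, whereas Y-linked *Ddx3y* was at most 0.482 CPM in ft/ftMyD88-/- and 54.2 to 73.2 CPM in ft/ft. The transcripts of the ft/ft libraries were therefore those of males, although the series describes female mice, and sex and genotype cannot be told apart in any comparison below.

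Of the 10 genes, 3 changed between the groups. *Slc7a11* and *Gclc*, which supply cysteine for glutathione and carry out its rate-limiting step, were higher in the libraries labelled ft/ftMyD88-/-, and *Keap1*, the brake on NRF2, was lower. The other 7, with *Nfe2l2* and the classical target genes *Nqo1* and *Hmox1* among them, did not pass the test. With 2 genes called higher, against 10.9% of all genes tested, and 1 called lower, against 12.3%, the 10 genes did not stand far from the 23.3% of all genes called in either direction. Their median log2 fold change was 0.10, against 0.01 over all genes tested. Groups did not overlap for 4 of the 10 genes, the 3 called genes and *Gsr*, against 26.7% of all genes tested.

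**Figure D1:**
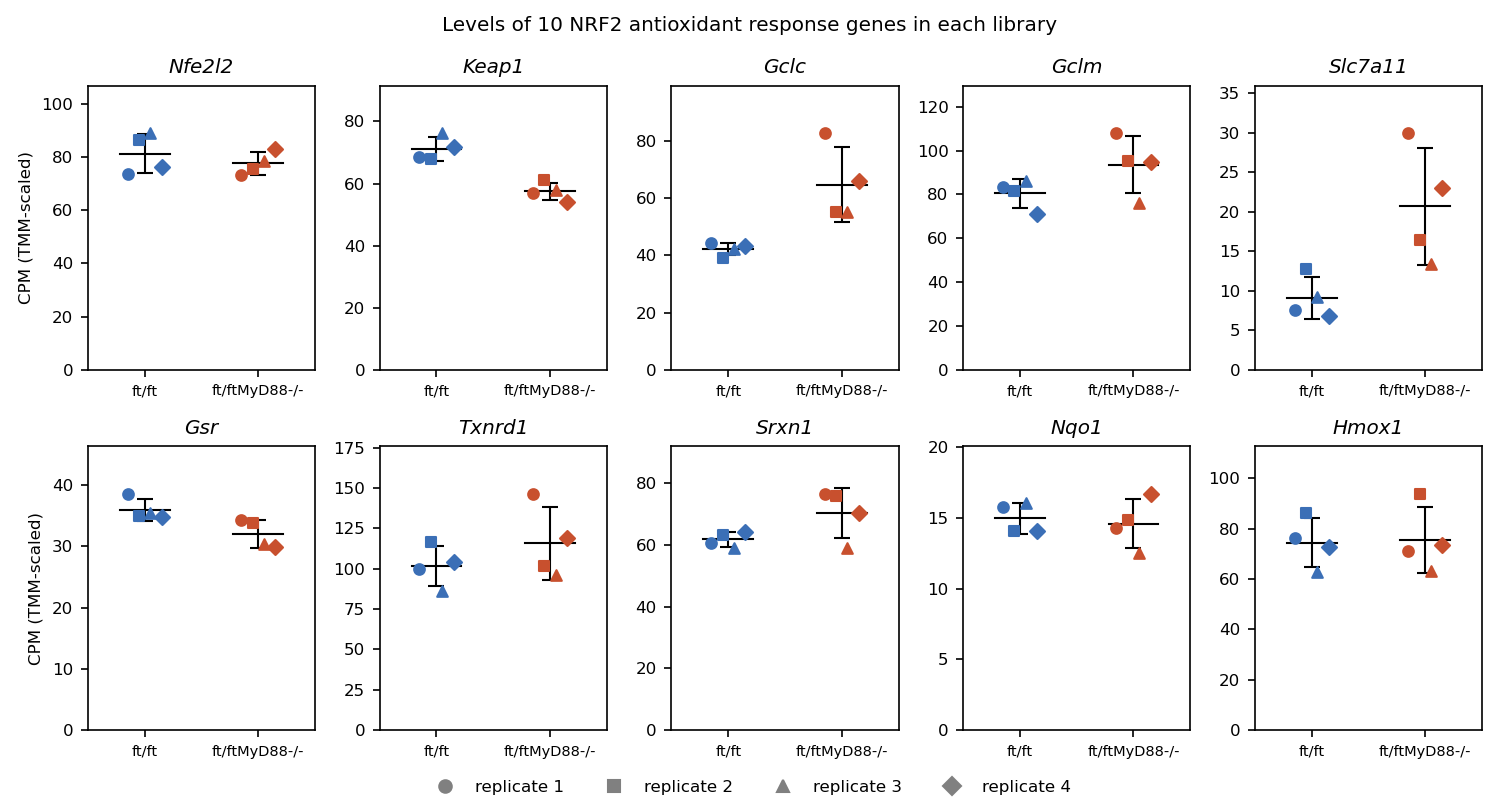
Levels of the 10 NRF2 pathway genes in each library. Points are TMM-scaled CPM on a linear axis from 0 for 4 ft/ft and 4 ft/ftMyD88-/- libraries, and bars are group means with SD. *Slc7a11* and *Gclc* are the only panels with all ft/ftMyD88-/- points above all ft/ft points, and *Keap1* and *Gsr* the only ones with all of them below.

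The factor and its inhibitor were described first. *Nfe2l2* (chromosome 2, 75675513 to 75704663 in RefSeq on GRCm38.p6, the source of all gene positions here) stood at 73.6, 86.2, 88.9 and 76.3 CPM in ft/ft and at 73.1, 75.6, 78.3 and 83.0 CPM in ft/ftMyD88-/-. The groups overlapped over most of their range. The log2 fold change was -0.07 (SE 0.0881, 95% interval -0.26 to 0.12, edgeR adjusted p = 0.624), and changes in *Nfe2l2* RNA beyond these bounds lay outside the interval. It changed sign, to 0.11, when libraries were scaled by their totals alone.

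*Keap1* was at 68.7, 68.0, 76.2 and 71.9 CPM in ft/ft and at 57.0, 61.1, 57.8 and 54.2 CPM in ft/ftMyD88-/-. Every ft/ftMyD88-/- library was below every ft/ft library, and the spread within each group was small. The mean fell from 71.2 ± 3.75 to 57.5 ± 2.83 CPM (SD, n = 4), a log2 fold change of -0.31 (SE 0.0784, edgeR adjusted p = 0.0147). The exact permutation test gave p = 0.0286, or 0.0714 after adjustment over the 10 genes. The former is the smallest value possible, so a gene apart on its own could not pass after adjustment. With scaling by library totals alone, which moved the median of all genes by 0.18, the log2 fold change was -0.13 and the call was lost (edgeR adjusted p = 0.26). In GENCODE M21, 10.9% of the exon bases of *Keap1* (chromosome 9, 21229730 to 21239332, minus strand) lay under an antisense gene with no row of its own in the table, and strand was not stated for the counting.

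Of these genes, 4 belonged to glutathione. *Slc7a11* encodes the transport subunit of the cystine-glutamate exchanger xCT, which brings in the cystine from which glutathione is made. The gene (chromosome 3, 50364936 to 50499087) was at 7.59, 12.8, 9.15 and 6.86 CPM in ft/ft and at 29.9, 16.4, 13.4 and 23.0 CPM in ft/ftMyD88-/-. All ft/ftMyD88-/- libraries were above all ft/ft libraries, but the lowest of the former, replicate 3, lay close to the highest of the latter, replicate 2. Mean levels were 9.1 ± 2.65 and 20.7 ± 7.36 CPM (SD, n = 4), a 2.26-fold difference and a log2 fold change of 1.18 (SE 0.278, 95% interval 0.55 to 1.80, edgeR adjusted p = 0.0151). It was the gene with the largest fold change and the largest relative spread of the 10, with an SD of 29.1% of the mean in ft/ft and 35.6% in ft/ftMyD88-/-. The exact permutation p was 0.0286, and 0.0714 adjusted over the 10 genes, with the same limit as for *Keap1*.

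*Gclc* encodes the catalytic subunit of glutamate-cysteine ligase, the first and rate-limiting enzyme of glutathione synthesis. The gene (chromosome 9, 77754535 to 77794489) was at 44.3, 39.1, 42.3 and 43.2 CPM in ft/ft and at 82.7, 55.1, 55.2 and 65.9 CPM in ft/ftMyD88-/-. The ft/ft libraries lay close together, with an SD of 5.27% of the mean, while the ft/ftMyD88-/- libraries spread over 20.1% and all lay above them. The mean rose from 42.2 ± 2.23 to 64.7 ± 13.0 CPM (SD, n = 4), or 1.53-fold, with a log2 fold change of 0.62 (SE 0.124, 95% interval 0.34 to 0.89, edgeR adjusted p = 0.00443). Leaving out any 1 library kept the call, with log2 fold changes of 0.48 to 0.70. *Gclc* was called in all 15 alternative fits.

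*Gclm*, the modifier subunit that makes the same ligase more efficient (chromosome 3, 122245487 to 122267215), was at 83.4, 81.5, 86.0 and 70.9 CPM in ft/ft and at 107.9, 95.1, 76.2 and 94.6 CPM in ft/ftMyD88-/-. Replicate 3 of ft/ftMyD88-/- lay within the ft/ft range and the other 3 above it. The log2 fold change was 0.22 (SE 0.109, 95% interval -0.02 to 0.45, edgeR adjusted p = 0.172). The test was passed without that library (0.32, edgeR adjusted p = 0.0377) and with scaling by library totals (0.39, edgeR adjusted p = 0.015). Of its exon bases, 4.71% lay under other annotated genes without a row in the table. *Gsr*, which encodes glutathione reductase (chromosome 8, 33653238 to 33698162), was at 38.6, 34.9, 35.4 and 34.7 CPM in ft/ft and at 34.3, 33.8, 30.4 and 29.8 CPM in ft/ftMyD88-/-. The groups did not overlap, with ft/ftMyD88-/- below, and the means were 35.9 ± 1.82 and 32.1 ± 2.30 CPM (SD, n = 4). Its log2 fold change of -0.16 (SE 0.0866, edgeR adjusted p = 0.195) did not pass the test and became 0.015 with scaling by library totals.

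Both genes of the thioredoxin arm had higher means in ft/ftMyD88-/- without passing the test. *Txnrd1*, the cytosolic thioredoxin reductase (chromosome 10, 82833951 to 82897724), was at 99.7, 116, 86.4 and 104 CPM in ft/ft and at 147, 102, 96.0 and 119 CPM in ft/ftMyD88-/-. *Srxn1*, sulfiredoxin, which restores overoxidised peroxiredoxins (chromosome 2, 152105524 to 152111376), was at 60.5, 63.2, 59.1 and 64.2 CPM in ft/ft and at 76.6, 75.7, 59.1 and 70.4 CPM in ft/ftMyD88-/-. For *Txnrd1* the high mean came from replicate 1 and the groups overlapped, while for *Srxn1* only replicate 3 was not above the ft/ft range. The log2 fold changes were 0.19 for *Txnrd1* (95% interval -0.11 to 0.48, edgeR adjusted p = 0.349) and 0.19 for *Srxn1* (95% interval -0.01 to 0.39, edgeR adjusted p = 0.164). Without ft/ftMyD88-/- replicate 3, *Srxn1* passed the test (0.28, edgeR adjusted p = 0.0349), as it did with scaling by library totals (0.37, edgeR adjusted p = 0.0116). *Txnrd1* passed it in no alternative.

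*Nqo1* and *Hmox1* are the genes most often read as reporters of NRF2 activity. *Nqo1*, a quinone reductase (chromosome 8, 107388225 to 107403205), was at 15.8, 14.0, 16.1 and 14.0 CPM in ft/ft and at 14.3, 14.8, 12.5 and 16.7 CPM in ft/ftMyD88-/-. *Hmox1*, an inducible haem oxygenase (chromosome 8, 75093618 to 75100593), was at 76.2, 86.2, 62.9 and 72.8 CPM in ft/ft and at 71.0, 94.0, 63.4 and 73.7 CPM in ft/ftMyD88-/-. The ranges of the groups lay over each other for both genes. The log2 fold changes were -0.04 for *Nqo1* (SE 0.115, 95% interval -0.29 to 0.21, edgeR adjusted p = 0.833) and 0.02 for *Hmox1* (SE 0.128, 95% interval -0.26 to 0.30, edgeR adjusted p = 0.933). The upper ends of these intervals were below the lower ends of those for *Gclc* and *Slc7a11*, of 0.34 and 0.55.

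**Figure D2:**
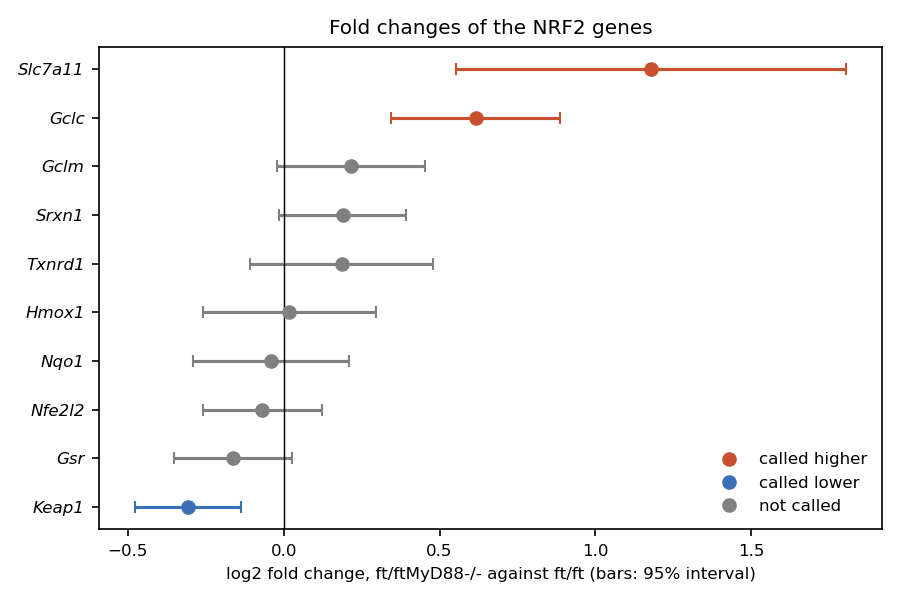
Log2 fold changes of the 10 genes in ft/ftMyD88-/- against ft/ft. Points are edgeR estimates with 95% intervals from 4 libraries per group, and the colour gives the call at an adjusted p under 0.05. *Slc7a11* (1.18) and *Gclc* (0.62) lie to the right of 0 and *Keap1* (-0.31) to the left, while the intervals of the other 7 genes cross 0.

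Within the ft/ftMyD88-/- group, replicate 1 was the highest library for 6 of the 10 genes and replicate 3 the lowest for 6. No ft/ft library was the highest for more than 4 genes or the lowest for more than 4. Replicate 1 led for *Slc7a11*, *Gclc*, *Gclm*, *Txnrd1* and *Srxn1*, so 5 of the 6 genes with a higher mean in ft/ftMyD88-/- had the same highest library, the exception being *Hmox1*. These 10 genes come from the same 8 libraries and are not independent of each other.

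Levels of different genes were compared only per kilobase of exon in GENCODE M21, with all annotated exons of a gene merged. This length can exceed that of any single transcript. The sources name different library protocols, and whether counts rose with length was not tested, so the order of genes is approximate. In ft/ft, *Hmox1* had the highest level, at 42.6 CPM per kilobase, ahead of *Srxn1* (21.9) and *Nfe2l2* (21.4). *Keap1*, *Txnrd1*, *Gsr*, *Gclm*, *Gclc* and *Nqo1* lay between 15.2 and 9.64 CPM per kilobase, and *Slc7a11*, with 13.922 kilobases of merged exons, was far lower at 0.654. In ft/ftMyD88-/- the level of *Gclc* was 17.2 CPM per kilobase, above that of *Gclm* (14.9), whereas in ft/ft it was 11.2 and below that of *Gclm* (12.8). *Slc7a11* remained the lowest, at 1.48 CPM per kilobase.

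To set each gene against a gene whose product works with its own, 8 ratios of counts were taken within libraries. The pairs were chosen after the values of the genes had been seen, and the p-values below were adjusted over all 8. *Slc7a11* was compared with *Slc3a2*, the heavy chain that carries xCT and other amino acid transporters to the cell surface. *Slc3a2* stood at 169 to 191 CPM in ft/ft and 148 to 212 CPM in ft/ftMyD88-/- (log2 fold change -0.05, edgeR adjusted p = 0.783). The ratio *Slc7a11*/*Slc3a2* was 0.0449, 0.0673, 0.0479 and 0.0385 in ft/ft and 0.141, 0.0925, 0.0905 and 0.137 in ft/ftMyD88-/-. All ft/ftMyD88-/- ratios were above all ft/ft ratios, a 2.32-fold difference (two-sided exact permutation test, p = 0.0286, adjusted p = 0.152). *Slc7a11* itself was apart between the groups and *Slc3a2* overlapped, so the ratio restates the *Slc7a11* values.

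The ratio of the ligase subunits, *Gclc*/*Gclm*, was 0.531, 0.480, 0.493 and 0.609 in ft/ft and 0.767, 0.579, 0.724 and 0.697 in ft/ftMyD88-/-. It was 1.31-fold higher in ft/ftMyD88-/-, with ft/ft replicate 4 above ft/ftMyD88-/- replicate 2 (two-sided exact permutation test, p = 0.0571, adjusted p = 0.152). *Keap1*/*Nfe2l2* had a mean of 0.880 ± 0.0717 in ft/ft and 0.745 ± 0.0677 in ft/ftMyD88-/- (SD, n = 4, two-sided exact permutation test, p = 0.0571, adjusted p = 0.152). None of the 8 ratios passed an adjusted p of 0.05. A single fully separated pair could not have passed, since the smallest permutation p before adjustment is 0.0286. For *Gsr*/*Gss*, *Txnrd1*/*Txn1*, *Srxn1*/*Prdx1*, *Hmox1*/*Blvrb* and *Nqo1*/*Nfe2l2* the exact permutation p was between 0.114 and 1 and the groups overlapped.

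**Figure D3:**
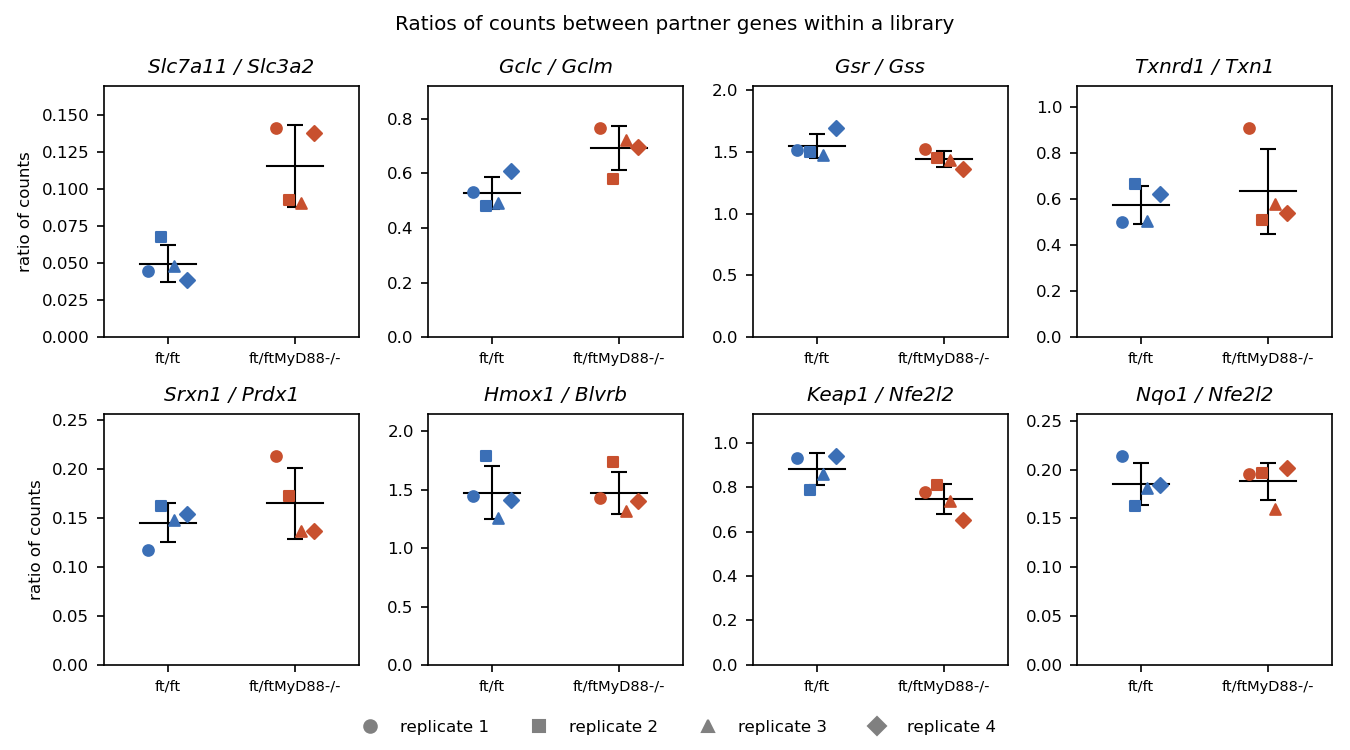
Ratios of counts within libraries for 8 pairs of genes. Points are single libraries, with the replicate number given by the marker, bars are group means with SD (n = 4), and each axis is a linear ratio from 0. *Slc7a11*/*Slc3a2* is the only pair in which the groups do not overlap (2.32-fold), and *Gclc*/*Gclm* differs 1.31-fold with overlap.

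The genes that control NRF2 were examined next. Of 14 tested, *Mafg* was higher, and *Cul3*, *Btrc* and *Sqstm1* were lower. Those shares, 7.14% and 21.4%, stood against 10.9% and 12.3% of all genes tested. *Cul3*, the ubiquitin ligase scaffold that KEAP1 works with, was at 173, 169, 149 and 164 CPM in ft/ft and 135, 116, 124 and 119 CPM in ft/ftMyD88-/- (log2 fold change -0.41, edgeR adjusted p = 0.00537). *Btrc*, which marks NRF2 for degradation by another ligase, was lower by a similar amount (-0.51, edgeR adjusted p = 0.00818). Other genes of NRF2 degradation on the list did not pass the test, with *Rbx1*, the RING subunit of the KEAP1 ligase, at 0.13 (edgeR adjusted p = 0.426) and *Gsk3b*, the kinase that prepares NRF2 for the ligase of *Btrc*, at -0.22 (edgeR adjusted p = 0.113), both named after their values had been seen. *Sqstm1*, the p62 protein that removes KEAP1 by autophagy and is itself an NRF2 target, fell by 0.37 on the log2 scale (edgeR adjusted p = 0.0073). The calls of all 3 were lost with scaling by library totals alone, with log2 fold changes of -0.23, -0.33 and -0.20 for *Cul3*, *Btrc* and *Sqstm1*. *Mafg*, a small MAF partner of NRF2, was at 0.25 (edgeR adjusted p = 0.04) and lost its call without ft/ft replicate 2, 3 or 4 or ft/ftMyD88-/- replicate 1 or 2 (edgeR adjusted p of 0.0613 to 0.102). *Bach1*, a repressor at the same elements, did not pass the test (-0.02, edgeR adjusted p = 0.872).

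Of 14 further genes of glutathione synthesis and use, 2 were higher and 1 was lower, with a median log2 fold change of 0.25, shares of 14.3% and 7.14% that lay near the 10.9% and 12.3% of all genes tested. Scaling by library totals gave 5 higher and 0 lower, and the higher count was 1 without ft/ft replicate 1, 3 or 4 and 3 without ft/ftMyD88-/- replicate 1. Without ft/ftMyD88-/- replicate 4 the median was 0.11. *Gpx2*, an epithelial glutathione peroxidase, was at 20.4, 24.5, 23.3 and 19.5 CPM in ft/ft and 38.3, 39.9, 25.2 and 40.9 CPM in ft/ftMyD88-/- (log2 fold change 0.72, edgeR adjusted p = 0.00486). *Ggt5*, which cleaves extracellular glutathione conjugates, was higher (0.65, edgeR adjusted p = 0.0488), and *Gpx3*, the secreted peroxidase, was lower (-0.74, edgeR adjusted p = 0.0243). The call of *Ggt5* was lost without any one of the 4 ft/ft libraries or without ft/ftMyD88-/- replicate 2 or 3 (edgeR adjusted p up to 0.122), and that of *Gpx3* without ft/ft replicate 3 or 4 or ft/ftMyD88-/- replicate 4 (edgeR adjusted p up to 0.0676) and with scaling by library totals. *Gss*, which adds glycine in the last step of synthesis, did not pass the test (-0.07, edgeR adjusted p = 0.655). Higher *Slc7a11* and *Gclc* thus stood beside a synthesis enzyme with overlapping groups.

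The glutathione S-transferases, many of which are NRF2 targets, went mainly the other way. Of 16 tested, 9 were lower and 2 higher (56.25% and 12.5%, against 12.3% and 10.9% of all genes tested). Their median log2 fold change was -0.45. With scaling by library totals 7 were lower and 3 higher, with a median of -0.27. Leaving out a library gave 8 to 9 lower and 1 to 2 higher. *Gsta2* was at 29.1, 22.2, 17.1 and 20.9 CPM in ft/ft and 5.92, 6.80, 6.16 and 5.85 CPM in ft/ftMyD88-/- (log2 fold change -1.85, edgeR adjusted p = 2.28e-05). The groups were well apart. *Gsta1* (-1.42, edgeR adjusted p = 0.00461) and *Gsta4* (-1.25, edgeR adjusted p = 0.00341) were lower too, and the split of reads between *Gsta1* and *Gsta2* is uncertain because they are closely alike. *Mgst2* (0.67, edgeR adjusted p = 0.0201) and *Gstm2* (0.54, edgeR adjusted p = 0.00185) were higher, the former not without ft/ft replicate 4 (edgeR adjusted p = 0.0621).

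Other NRF2 target enzymes and transporters also included more genes lower than higher, 6 against 2 of 12 tested, but 5 against 5 with scaling by library totals. With TMM this was 50% lower and 16.7% higher, against 12.3% and 10.9% of all genes tested. *Aldh3a1*, an aldehyde dehydrogenase of epithelia, was at 606, 714, 618 and 454 CPM in ft/ft and 177, 260, 266 and 227 CPM in ft/ftMyD88-/- (log2 fold change -1.36, edgeR adjusted p = 0.000191). *Ephx1*, the microsomal epoxide hydrolase, was lower (-0.92, edgeR adjusted p = 0.000229), and so was *Pir* (-0.70, edgeR adjusted p = 0.0014). *Cbr3*, a carbonyl reductase, was higher (0.59, edgeR adjusted p = 0.00542), as was the aldo-keto reductase gene *Akr1b8* (0.65, edgeR adjusted p = 0.0282). The call of *Akr1b8* was lost without ft/ft replicate 1, 3 or 4 or ft/ftMyD88-/- replicate 2 or 4 (edgeR adjusted p of 0.0647 to 0.0813).

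In the thioredoxin and peroxiredoxin list, 2 of 14 genes were lower (14.3%, near the 12.3% of all genes tested) and 0 higher. These were *Txnip*, the inhibitor of thioredoxin (-0.54, edgeR adjusted p = 0.0081), and *Prdx6* (-0.52, edgeR adjusted p = 0.00137), whereas *Txn1* (0.07, edgeR adjusted p = 0.711) and *Prdx1* (0.02, edgeR adjusted p = 0.938) did not pass the test. Among superoxide dismutases and catalase, *Cat* was lower (-0.57, edgeR adjusted p = 0.0082) and *Sod1* was lower (-0.37, edgeR adjusted p = 0.0374), out of 4 tested (50%). The call of *Sod1* was kept only without ft/ft replicate 2 or ft/ftMyD88-/- replicate 3, and was otherwise lost on leaving out a library (edgeR adjusted p up to 0.0963). Of 6 genes of NADPH supply, *Me1*, malic enzyme, was lower (-0.45, edgeR adjusted p = 0.00555), and *G6pdx*, the first enzyme of the pentose phosphate pathway, did not pass the test (-0.15, edgeR adjusted p = 0.395). The share called lower on the NADPH list was 16.7%. The calls of *Txnip*, *Cat*, *Sod1* and *Me1* were lost with scaling by library totals.

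Of 8 genes of haem and iron handling, *Blvra*, a biliverdin reductase, was higher (0.42, edgeR adjusted p = 0.0242), and *Fth1*, the ferritin heavy chain, and *Fech*, ferrochelatase, were lower (-0.51, edgeR adjusted p = 0.00447, and -0.40, edgeR adjusted p = 0.00507). On this list 12.5% were called higher and 25% lower, against 10.9% and 12.3% of all genes tested. *Blvrb*, which acts after haem oxygenase, did not pass the test (0.01, edgeR adjusted p = 0.925). The call of *Blvra* was lost without ft/ft replicate 2, 3 or 4 or ft/ftMyD88-/- replicate 2 or 4 (edgeR adjusted p up to 0.0613), and that of *Fech* with scaling by library totals.

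Enzymes that make oxidants had 4 of 12 genes higher (2 without ft/ft replicate 1) and 1 lower, with a median log2 fold change of 0.27 (0.15 without ft/ftMyD88-/- replicate 4). That was 33.3% higher and 8.33% lower, against 10.9% and 12.3% of all genes tested. *Ncf4* (0.91, edgeR adjusted p = 0.00193) and *Cyba* (0.69, edgeR adjusted p = 0.00215), subunits of the phagocyte NADPH oxidase, were among the higher genes. *Cyba* was at 34.5, 32.5, 37.8 and 30.7 CPM in ft/ft and 46.6, 61.1, 46.3 and 64.2 CPM in ft/ftMyD88-/-, without overlap. *Nox4* was higher (0.63, edgeR adjusted p = 0.0252), except without ft/ft replicate 1 or 2 or ft/ftMyD88-/- replicate 3 or 4 (edgeR adjusted p up to 0.0654). *Mpo*, myeloperoxidase, was lower, at 12.3, 18.5, 3.79 and 12.4 CPM in ft/ft and 0.657, 1.36, 3.40 and 1.16 CPM in ft/ftMyD88-/- (-2.80, edgeR adjusted p = 0.0195), and lost its call without ft/ftMyD88-/- replicate 2 or 4 (edgeR adjusted p up to 0.0576). Over the 100 genes of these 9 lists, 12 were called higher and 27 lower, shares of 12% and 27% against 10.9% and 12.3% over all genes tested. With scaling by library totals the balance turned, to 26 higher and 15 lower. The higher count fell to 6 when ft/ft replicate 4 was left out, to 7 when replicate 3 of that group was, and to 8 when its replicate 1 or replicate 2 of ft/ftMyD88-/- was.

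**Figure D4:**
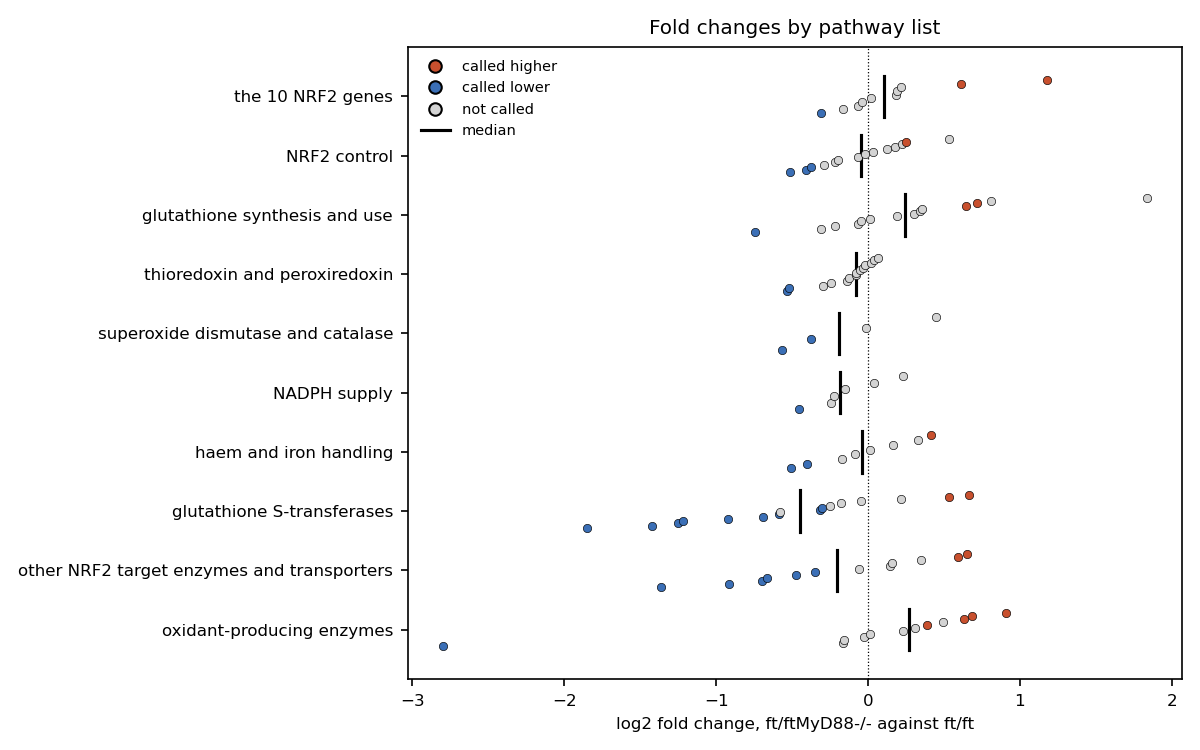
Log2 fold changes of the genes of each list in ft/ftMyD88-/- against ft/ft. Each point is 1 gene, coloured by its call at an edgeR adjusted p under 0.05, and the vertical line is the median of the list. The median is -0.45 for the glutathione S-transferases, 0.25 for glutathione synthesis and use and 0.27 for the oxidant-producing enzymes.

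Markers of skin cell types moved with the groups, and in RNA of whole tissue fewer cells of a type and less RNA per cell cannot be told apart. By histology the study reports no difference in the number of sebaceous glands, but larger glands and a thicker epidermis in ft/ftMyD88-/- mice. Beside the counts below, 10.9% of all genes tested were called higher and 12.3% lower. Summed levels of 7 basal keratinocyte markers were 14025 to 17176 CPM in ft/ft and 9838 to 12059 CPM in ft/ftMyD88-/-, with 5 of 7 called lower. Those of 13 sebocyte markers, which include the transferase gene *Mgst1*, were 22695 to 25818 and 13833 to 20259 CPM, with 8 of 13 lower, but 4 of 13 without ft/ftMyD88-/- replicate 4 and 4 lower and 1 higher with scaling by library totals. Differentiated keratinocyte markers (4 of 9 lower), fibroblast markers (3 of 6) and skeletal muscle markers (8 of 9) also had summed levels that were lower in every ft/ftMyD88-/- library. Conversely, neutrophil markers, of which 6 of 8 had a row in the table, summed to 31.2 to 263 CPM in ft/ft and 406 to 967 CPM in ft/ftMyD88-/-, although only 1 of 6, *Csf3r*, passed the test, and its call was lost on leaving out any one of 6 libraries, namely replicates 1, 3 and 4 of ft/ft and 1, 2 and 4 of ft/ftMyD88-/-. *S100a8* (25.8 against 242 CPM) and *S100a9* (39.2 against 368 CPM), which stressed keratinocytes also make, carried most of this sum, while *Cxcr2* overlapped between groups (12.1 to 21.4 against 13.2 to 25.6 CPM). The highest ft/ft sum was that of replicate 2 alone, the other 3 being 31.2 to 43.4 CPM. Macrophage and monocyte markers summed to 629 to 833 and 864 to 1183 CPM, with 3 of 11 higher.

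The summed level of stress keratinocyte markers overlapped between groups, but it was made up mostly of *Krt17*, *Krt6a* and *Krt6b*, and all 7 markers had a positive log2 fold change, with a median of 1.76. *Sprr1b* was called higher (9.15-fold, edgeR adjusted p = 0.0174), and *Krt16* was 6.00-fold apart without overlap (edgeR adjusted p = 0.053). Of the 7, 4 were called with DESeq2 or when ft/ft replicate 2 was left out, and 0 when replicate 4 of ft/ft was. These marker genes were named after their values had been seen. *Krt16* and *Sprr2d* were highest among the ft/ft libraries in replicate 2 (253 and 47.8 CPM, against at most 67.2 and 4.07 CPM in the other 3), which was also the ft/ft library highest for *Slc7a11*. Without it the log2 fold change of *Slc7a11* was 1.39. Summed levels of red blood cell and adipocyte markers overlapped between groups, with 2 of 6 lower (1 to 4 on leaving out a library) and 0 of 6 called. In no list was a marker at 0 in all libraries. Replicate 1 of ft/ftMyD88-/-, the library highest for *Slc7a11* and *Gclc*, had the lowest macrophage sum of its group (864 CPM) and a neutrophil sum of 499 CPM, below that of replicates 2 and 4. The part of cell composition and of the stress markers in the lower transferase and *Keap1* levels, or in the higher *Slc7a11* and *Gclc* levels, was not tested.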

How the data were processed

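Gene-level counts of eye-skin RNA were analysed for 4 ft/ft and 4 ft/ftMyD88-/- libraries, grouped by the titles in the sample labels. The authors deposited raw read counts per gene without normalization, made per the methods by HISAT and TopHat2 alignment to GRCm38.p6 and HTSeq counting at default settings after polyA selection. The labels of these samples instead name total RNA, a fixed-tissue protocol and Cell Ranger. Versions, annotation release and strand setting were not given in the sources used here. Reads of overlapping genes or close paralogs may therefore have been split or dropped.

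Counts were tested with edgeR 4.0.16 in R 4.3.3 (TMM factors, quasi-likelihood, genes with at least 10 counts in all, two-sided, Benjamini-Hochberg over 20454 genes). Scripts were tested on simulated data. Single genes and count ratios were compared with two-sided exact permutation tests over libraries, on log2 values (scipy 1.17.1), and promoter windows were searched for motifs. Alternatives were DESeq2 1.42.0, limma 3.58.1 voom, RLE factors, library totals, other filters, a replicate block, stricter thresholds and leaving out each library. Gene coordinates came from RefSeq and exon lengths from GENCODE M21, both on GRCm38. The 8 columns matched to these samples were used, and no replicate pair was alike within sampling noise. Per the study, each group came from 4 mice. Precision rests on 15802957 to 29255129 counts per library.

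The 10 genes and the lists were chosen with earlier results of these data known. Besides the 10 genes and named partners, each list contributed up to 3 genes called higher and 3 called lower with the largest fold changes, at a mean of at least 20 counts per library. The ratios, the TGATGNAA search and the amino acid stress list were chosen after the values were seen.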

Additional observations from a re-analysis of the deposited data

How the results depend on the processing

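*Gclc* was called higher in all 15 alternative fits. Scaling by library totals alone gave 4638 genes higher and 1326 lower (77.8% higher, against 47.0% with TMM), 4 of the 10 genes higher and 0 lower. It turned the log2 fold changes of *Nfe2l2* (0.11), *Gsr* (0.015) and *Nqo1* (0.14), and TMM factors (0.922 to 0.954 in ft/ft, 1.04 to 1.09 in ft/ftMyD88-/-) differed between the groups. An adjusted p under 0.01 left 951 genes higher and 1350 lower, with 1 of the 10 higher and 0 lower. A log2 fold change of at least 1 left 752 and 520, with 1 of the 10 higher and 0 lower. Leaving out 1 library gave 1464 (without ft/ft replicate 4) to 2260 genes higher, and 2 to 4 of the 10 (4 without ft/ftMyD88-/- replicate 3). It moved *Nqo1* between -0.10 and 0.041, positive without ft/ftMyD88-/- replicate 3, and *Hmox1* between -0.10 and 0.11, negative without ft/ft replicate 3 or ft/ftMyD88-/- replicate 2. The cause of these changes was not tested.

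Samples with the same replicate number did not deviate together (correlations across genes of -0.300, 0.041, 0.066 and -0.039, and only replicate 3 correlated best with its own number), so the numbers were not taken as pairs. With the replicate block, 4039 genes were called, 1 of the 10 was higher and *Slc7a11* was at 1.15 (edgeR adjusted p = 0.0583).

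Levels near 3 counts, or 0.102 to 0.183 CPM, could not be told from 0, which touched none of the 10 genes. Floors cover counting error only.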

Other observations

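*Slc7a11* is also a target of ATF4, the factor of the amino acid stress response. A list of 16 genes of that response was drawn up after the values of *Slc7a11* had been seen, so its counts support nothing by themselves. In it, *Atf4*, *Asns*, *Mthfd2*, *Slc7a1* and *Slc7a5* were called higher and *Trib3* lower. These were shares of 31.25% and 6.25%, against 10.9% and 12.3% of all genes tested. A positive log2 fold change was seen in 8 of the 16, and the median was 0.10. *Atf4* was at 93.8, 98.8, 86.0 and 96.9 CPM in ft/ft and 186, 189, 173 and 208 CPM in ft/ftMyD88-/- (log2 fold change 1.01, SE 0.0868, edgeR adjusted p = 2.64e-05), without overlap. *Mthfd2*, a mitochondrial folate enzyme, was 0.77 higher on the log2 scale (edgeR adjusted p = 0.000991), *Slc7a5*, a large neutral amino acid transporter, 0.61 (edgeR adjusted p = 0.0157) and *Asns*, asparagine synthetase, 0.34 (edgeR adjusted p = 0.0271). *Slc7a1* was at 0.54 (edgeR adjusted p = 0.0431) with overlapping groups, 29.9 to 43.8 CPM in ft/ft and 42.5 to 72.0 CPM in ft/ftMyD88-/-. *Trib3* was at -0.45 (edgeR adjusted p = 0.0238). How these calls fared in the alternative fits is not given here. Any part of ATF4 in the *Slc7a11* level was not tested.

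*Chac1*, which breaks down glutathione, was at 27.5, 35.6, 24.2 and 31.0 CPM in ft/ft and 104, 24.3, 21.2 and 58.3 CPM in ft/ftMyD88-/-. Replicates 1 and 4 of ft/ftMyD88-/-, the highest libraries for *Slc7a11*, were the highest for *Chac1*, while replicate 2 lay within and replicate 3 below the ft/ft range (log2 fold change 0.81, edgeR adjusted p = 0.34). *Cth*, which makes cysteine from cystathionine, had the same highest libraries, at 29.0, 12.5, 13.0 and 22.3 CPM in ft/ftMyD88-/- against 15.9 to 16.7 CPM in ft/ft (0.22, edgeR adjusted p = 0.56). *Chac1* and *Cth* were singled out after their values had been seen.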
